A study of Mus musculus with 12 samples.

Results

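The comparison described here is that of methyltrioctylammonium chloride (MTOAC) with vehicle in mouse oligodendrocyte progenitor cells (OPCs), which takes in 6 of the 12 libraries of the series. The 3 MTOAC libraries and the 3 vehicle libraries were chosen by their titles and treatment labels, and all genes that passed the filter below are members. MTOAC is a quaternary ammonium salt with octyl chains and no aromatic ring. The OPCs had been derived from mouse pluripotent stem cells, so they are a culture model and not cells of an animal, and the strain is not given in the labels used here. In both groups the cells attached for 1 h to coated plates in a medium that permits differentiation (DMEM/F12 with N2max, B27, Noggin, NT3, cAMP and IGF-1). They then received either MTOAC at its IC75, a concentration defined by the degree of inhibition it causes, or dimethyl sulfoxide as vehicle, for 4 h. The concentration itself is not given in the labels, and only this time and dose were sampled. The labels do not say that libraries 1 to 3 of a group are separate cultures. P-values therefore speak only of the spread among these libraries, which may be technical. The series also holds 3 libraries each for cetylpyridinium chloride (CPC) and for C12-C14-alkyl(ethylbenzyl)dimethylammonium chloride (AEBDAC), and the study asks how such compounds affect developing oligodendrocytes.

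OPCs are the dividing precursors of oligodendrocytes, the cells that wrap axons in myelin, and growth factor and Notch signals hold them as progenitors. Olig1, Olig2 and Sox10 are transcription factors of the lineage. Cells of most kinds answer lack of amino acids, misfolded proteins or mitochondrial stress by phosphorylating the initiation factor eIF2, which slows translation in general while favouring translation of the mRNA of ATF4. ATF4 then induces genes of amino acid synthesis and transport, a programme known as the integrated stress response. Immediate early genes are a separate class, transcribed within minutes of a stimulus without new protein synthesis.

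Expression was deposited as TPM, transcript abundances scaled by transcript length and by the total of the library. How symbols were summed from transcripts is not given in the sources used here, and Actb and Eef1a1, genes that most cells express highly, were listed at only 31.6 to 76.2 TPM and 34.0 to 63.2 TPM over the 12 libraries. A printed TPM is therefore the value deposited for a symbol and may understate the level of a gene. The 12 libraries summed to between 772637 and 797758 TPM over 35385 symbols, with 15431 to 16210 symbols above 0, and TPM keep no record of depth, for which the labels state a minimum of 20 M reads. Vehicle library 1 stood apart. The mitochondrial transcript mt-Nd3 was listed at 0 in it, genes of the mitochondrial genome added up to 86422 TPM in it, while the other 11 libraries held 147539 to 183001 TPM, and its mean correlation with the others across genes was 0.917 against 0.9354 to 0.9568. Results that rest on this library are given with and without it. OPC markers were present, and their 25 members summed to 2097, 1974 and 2073 TPM in MTOAC libraries 1 to 3 and to 2985, 3164 and 3162 TPM in vehicle libraries 1 to 3, without overlap. Of 12 microglial and myeloid markers, 11 were under 1 TPM in all 6 libraries, as were 7 of 10 pluripotency markers and 6 of 10 mesenchymal markers, Col1a1, Col1a2 and Pdgfrb among them. The 13 neuronal markers summed to 291 to 377 TPM with MTOAC and to 456 to 504 TPM with vehicle, but Map2 made up most of this, and the other 12 summed to 57.1 to 68.5 TPM with MTOAC and to 62.6 to 72.9 TPM with vehicle, with overlap. OPC markers other than Olig1 summed to 1449 to 1617 TPM with MTOAC and to 1878 to 1968 TPM with vehicle. The 11 astrocyte markers summed to 323 to 359 TPM with MTOAC and to 397 to 426 TPM with vehicle. Those other than Aldoc summed to 138 to 188 TPM with MTOAC and to 175 to 264 TPM with vehicle, with overlap. The 9 markers of radial glia and neural precursors summed to 1950 to 2485 TPM with MTOAC and to 1975 to 2170 TPM with vehicle. The mesenchymal markers summed to 69.9 to 111 TPM with MTOAC and to 49.7 to 75.5 TPM with vehicle. In bulk RNA, fewer cells of a type and less RNA per cell cannot be told apart, and the part that such shifts in marker sums have in the results was not tested.

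With MTOAC 785 of 12009 tested genes were called, and far more of them were lower than higher. Tested genes had at least 1 TPM in at least 3 of the 12 libraries, and a call is an adjusted p under 0.05 in limma on log2(TPM + 1), a scale that understates the change of low genes. Of all tested genes 6.54% were called, 95 higher with MTOAC (0.791%) and 690 lower (5.75%), so that 87.9% of the calls were lower. The fit takes its estimate of the spread from all 12 libraries. With the 6 libraries alone it called 17 genes, 7 higher and 10 lower, and with all but MTOAC library 2 it called 149, 30 higher and 119 lower. The whole distribution was displaced as well. The median gene had a fold change of -0.22 log2, 71.7% of genes had a negative fold change, and the quartiles were -0.50 and 0.04. The ranges of the groups were apart for 26.4% of genes, 22.4% lower with MTOAC and 3.99% higher. They were apart for 689 of the 690 genes called lower and for all 95 called higher. A lack of overlap in a called gene thus adds little to its call. The median half-width of a gene's 95% interval was 0.55 log2.

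The displacement was a shift of many genes by a little, and the library medians themselves overlapped. The median log2(TPM + 1) over tested genes was 3.46, 3.33 and 3.62 in MTOAC libraries 1 to 3 and 3.93, 3.60 and 3.65 in vehicle libraries 1 to 3. MTOAC library 3 thus lay above vehicle library 2, and the highest value was that of vehicle library 1. The means were 3.47 ± 0.15 with MTOAC and 3.73 ± 0.18 with vehicle (SD, n = 3), with an exact two-sided permutation p of 0.2 where the smallest the design allows is 0.1. Leaving out vehicle library 1 moved the median gene to -0.14 log2, and 305 genes were called, 57 higher and 248 lower. TPM are shares of a total, so a general loss of RNA per cell would leave no trace in them, and the absolute amount of RNA was not measured in these files.

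Set against the median gene, the falls and the rises came out about even in number. Quantile normalization, which gives each library the same distribution of values, called 430 genes, 213 higher (1.77%) and 217 lower (1.81%), so that 50.5% were lower. Median centring, which takes from each library its own median, called 411, 236 higher and 175 lower. All 217 genes lower after quantile normalization were among the 690, and none of the 690 turned positive. Of the 95 higher genes 89 were also called after quantile normalization, joined by 124 further genes. The median fitted fold change was -0.85 log2 over the 690 lower genes, which ran from -0.31 to -4.39, and 0.98 log2 over the 95 higher genes, which ran from 0.42 to 3.21. Counted from the median gene, 112 of the 690 lower genes and 71 of the 95 higher genes lay more than 1 log2 away. Of the lower genes 95 were called in each of the 6 fits that leave out 1 library, and 20 of the higher genes.

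**Figure D1:**
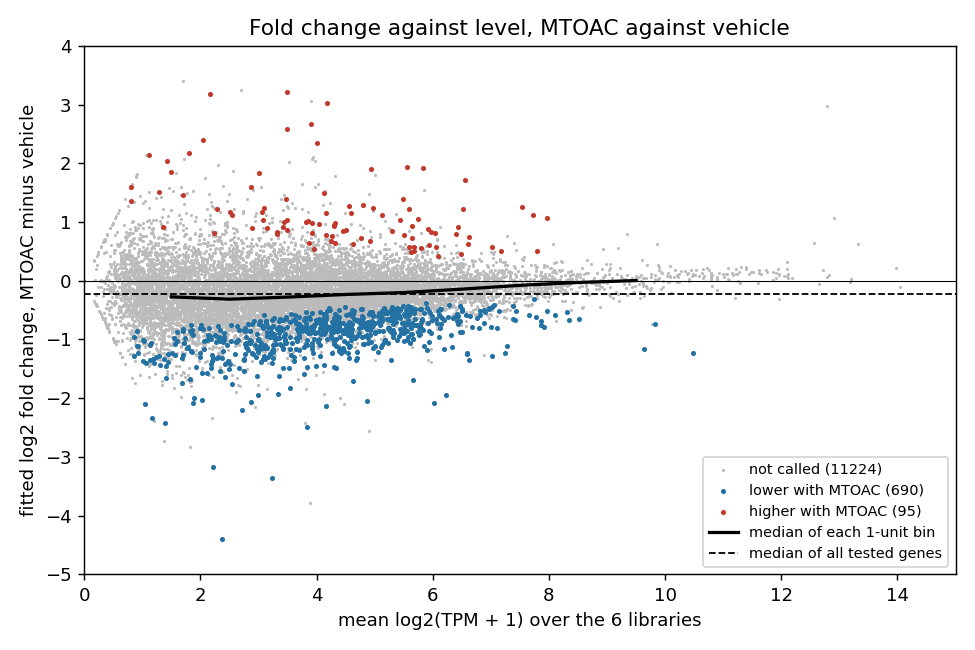
Fitted log2 fold change of MTOAC minus vehicle (vertical axis) against the mean log2(TPM + 1) of the 6 libraries (horizontal axis) for the 12009 tested genes, with genes called higher in red, genes called lower in blue, the dashed line at the median of all genes (-0.22) and the solid line joining medians of 1-unit bins; 1 gene lies outside the range drawn. The bin medians lie at -0.27 to -0.31 for genes between 1 and 4 on the horizontal axis and reach 0.00 between 9 and 10.

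The size of the displacement differed with the level and the genomic length of the gene. Among protein-coding genes with a mean of 2 to 5 TPM over the 6 libraries the median fold change was -0.30 log2, and among those above 100 TPM it was -0.06 log2. The share called lower was highest at 20 to 50 TPM, at 9.01%, and was 4.48% above 100 TPM. By genomic span, protein-coding genes of 5 to 10 kb had a median of -0.26 log2 with 9.66% called lower. Genes over 100 kb had a median of -0.12 log2 with 2.23% called lower. By exonic length, the median was -0.12 log2 up to 1000 bp, with 2.23% called lower. It was -0.24 log2 at 2000 to 4000 bp, with 6.91% called lower, and -0.19 log2 over 10000 bp, with 3.99%. Among protein-coding genes, the 668 lower ones had a median span of 16.9 kb, the 92 higher ones one of 22.4 kb and all 11379 tested ones one of 25.1 kb. The median exonic length differed less between these sets, at 4296 bp, 4698 bp and 4644 bp in the same order. Genes are not independent replicates, and these medians are a description. Overlaps between exons of different genes concerned 25.9% of these lower genes, 18.5% of the higher and 22.1% of all tested. Without strand, reads of such pairs cannot be told apart. Called genes named below with an opposite-strand model were Hspa1a, Yars, Dnaja1, Spen, Tk1, Cdc25c, Kif20a, Hnrnpu, Tardbp, Rbm10, Rbm12b2, Zfp646, Zfp276, Mrps30 and Usp40. Fdps, Hnrnpul2 and Hnrnpm had one on the same strand, and Chkb and Diablo had both. Overlaps of Gpr17, Lims2, Cnp, Syvn1, Nr1d1, Apc2, Mrpl49, Rbm4, Rbm12, Rbm14 and Cpne1 are given where these genes are named.

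Targets of the integrated stress response held 8 of the 95 higher genes. Of 31 listed targets 29 were tested, 8 rose (27.6%, against 0.791% of all genes) and none fell, and 22 fold changes were positive. The median of the list was 0.56 log2, or 0.78 above the median gene. Chac1, which encodes an enzyme that degrades glutathione, had 55.8, 56.3 and 42.2 TPM in MTOAC libraries 1 to 3, against 3.05, 6.50 and 7.42 TPM in vehicle libraries 1 to 3. The groups lay far apart, and Chac1 had the smallest p-value of all genes with a named model (3.03 ± 0.25 log2 as fitted, 3.25 relative to the median gene, adjusted p = 0.0006). Trib3, a pseudokinase that feeds back on ATF4, had 24.997, 26.6 and 28.5 TPM in MTOAC libraries 1 to 3, against 2.45, 3.67 and 5.08 TPM in vehicle libraries 1 to 3. Each MTOAC library was several times above each vehicle library (2.58 ± 0.28 log2 as fitted, 2.80 relative to the median gene, adjusted p = 0.00228). Asns, asparagine synthetase, had 12.2, 9.75 and 16.04 TPM in MTOAC libraries 1 to 3, against 0.142, 1.88 and 0 TPM in vehicle libraries 1 to 3. The vehicle levels were near 0 in libraries 1 and 3, and the error of its fold change was large (3.18 ± 0.41 log2 as fitted, 3.40 relative to the median gene, adjusted p = 0.00562). The promoters of these genes show where the letters TGATGNAA, searched for on both strands as the core of the element that C/EBP-ATF factors bind, stand relative to the start of transcription. Each line gives 250 bases before to 50 bases after the start, from RefSeq on GRCm38.p6, 5′ to 3′ on the strand of the gene, with the match in capitals.
Chac1: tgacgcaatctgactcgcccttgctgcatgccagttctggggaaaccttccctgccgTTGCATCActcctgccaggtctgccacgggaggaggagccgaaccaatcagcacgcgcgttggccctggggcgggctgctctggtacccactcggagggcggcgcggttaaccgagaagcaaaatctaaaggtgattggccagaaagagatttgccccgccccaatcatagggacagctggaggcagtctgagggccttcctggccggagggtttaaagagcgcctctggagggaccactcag
Trib3: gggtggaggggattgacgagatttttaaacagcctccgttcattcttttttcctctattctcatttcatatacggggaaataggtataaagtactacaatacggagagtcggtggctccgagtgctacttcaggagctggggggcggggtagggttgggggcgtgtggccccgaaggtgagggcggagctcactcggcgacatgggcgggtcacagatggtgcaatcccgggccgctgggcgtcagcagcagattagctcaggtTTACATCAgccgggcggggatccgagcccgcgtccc
Asns: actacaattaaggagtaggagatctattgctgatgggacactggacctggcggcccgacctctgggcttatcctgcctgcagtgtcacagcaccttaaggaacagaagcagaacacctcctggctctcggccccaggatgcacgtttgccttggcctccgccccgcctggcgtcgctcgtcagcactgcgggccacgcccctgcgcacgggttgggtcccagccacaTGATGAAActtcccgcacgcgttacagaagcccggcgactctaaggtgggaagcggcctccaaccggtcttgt
The Chac1 window is chr2:119350992-119351291 on the plus strand, the Trib3 window chr2:152344011-152344310 and the Asns window chr6:7693160-7693459, both on the minus strand. The match begins at -193 in Chac1, at -23 in Asns and at +15 in Trib3. These letters stood in the windows of 230 of the 9062 tested genes that have one (2.54%), of 8 of 74 higher genes (10.8%), of 12 of 522 lower genes (2.3%) and of 9 of 27 integrated stress response targets (33.3%). The 4 higher targets with a match were Asns, Chac1, Fgf21 and Trib3. Other motifs were searched for in the same windows. Letters of a heat shock element stood in 0.53% of all tested genes with a window and in 0 of 74 higher genes. The Hspa1a and Hspa1b windows held none. A cAMP response element stood in 3.7% of all and 6.76% of higher genes. The CArG box stood in 1.49% of all and 2.7% of higher genes. None of these stood in the window of an integrated stress response target. Whether these shares differ was not tested. A match describes the letters in the window and not a bound site.

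The remaining 5 called targets included the regulator ATF4 itself, a folate enzyme and a translation repressor. Atf4, the transcription factor of the response, had 366, 432 and 301 TPM in MTOAC libraries 1 to 3, against 132, 176 and 219.8 TPM in vehicle libraries 1 to 3 (1.07 ± 0.20 log2 as fitted, 1.29 relative to the median gene, adjusted p = 0.0162). Mthfd2, a mitochondrial folate enzyme, had 152, 162 and 201 TPM with MTOAC, against 54.1, 46.5 and 53.2 TPM with vehicle (1.72 ± 0.17 log2 as fitted, 1.94 relative to the median gene, adjusted p = 0.00109). Eif4ebp1, a repressor of cap-dependent translation, had 132, 110.4 and 187 TPM with MTOAC, against 69.9, 50.5 and 58.9 TPM with vehicle (1.22 ± 0.20 log2 as fitted, 1.44 relative to the median gene, adjusted p = 0.0112). In all of these the lowest MTOAC library lay above the highest vehicle library. Sesn2, a stress-induced inhibitor of mTORC1 signalling, averaged 118 ± 18.4 TPM with MTOAC and 63.2 ± 14.9 TPM with vehicle (0.91 ± 0.22 log2, adjusted p = 0.0359). Fgf21, a secreted metabolic hormone, was listed at 1.02, 1.22 and 3.86 TPM with MTOAC and at 0, 0.0920 and 0.180 TPM with vehicle (1.36 ± 0.33 log2, adjusted p = 0.0373). These levels are at the bottom of the measured range. Ddit3, which encodes CHOP, a factor downstream of ATF4, had 10.2, 13.5 and 21.5 TPM in MTOAC libraries 1 to 3, against 12.7, 8.25 and 4.49 TPM in vehicle libraries 1 to 3, where the groups overlapped (0.80 ± 0.31 log2, adjusted p = 0.145). Atf3, another target, was listed at 0 in all 6 libraries and was not tested. Removing 1 library at a time left Mthfd2, Eif4ebp1, Chac1, Trib3 and Asns called in all 6 fits. The call was lost without MTOAC library 1 by Sesn2, without MTOAC library 2 by Atf4, Sesn2 and Fgf21, without MTOAC library 3 by Fgf21, and without vehicle library 1, 2 or 3 by Sesn2 and Fgf21 (highest adjusted p = 0.119).

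**Figure D2:**
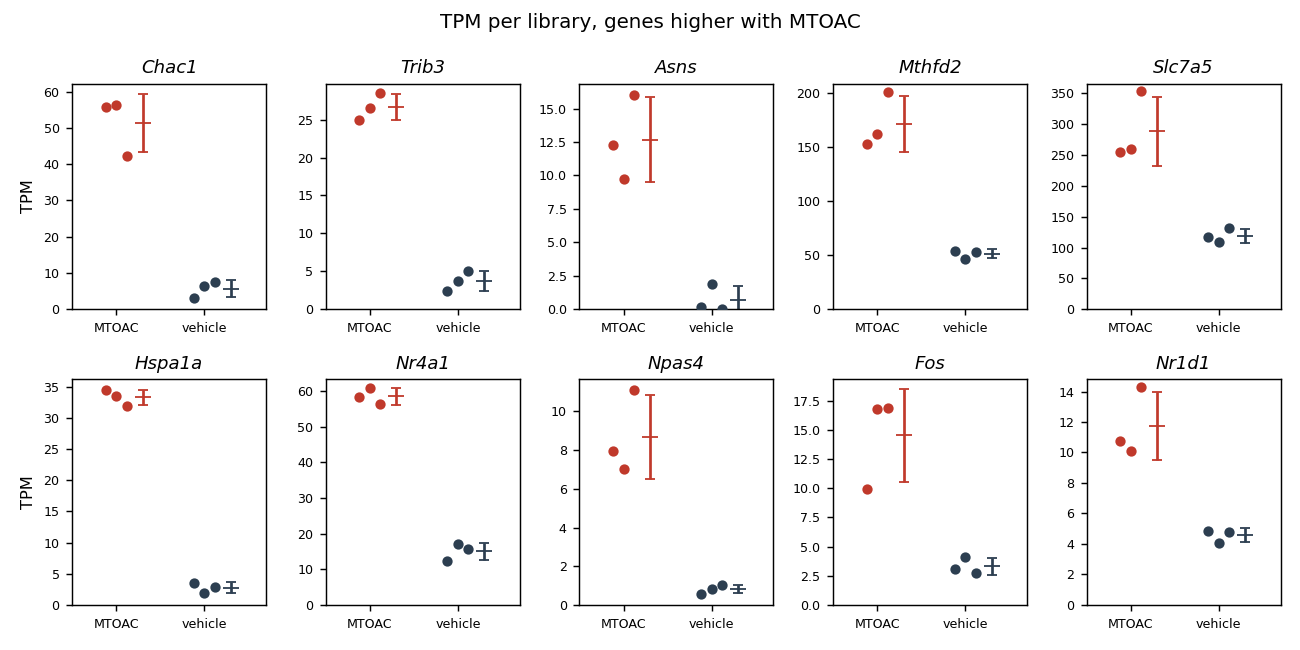
TPM in each library (vertical axes start at 0) for 10 genes called higher with MTOAC, with MTOAC libraries 1 to 3 in red on the left and vehicle libraries 1 to 3 in dark blue on the right of each panel, and the mean ± SD (n = 3) beside the points. No vehicle point reaches the lowest MTOAC point in any of the 10 panels, as in all 95 genes called higher.

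Genes that supply amino acids to translation were mostly not called, with a few clear rises among them. Of 23 amino acid transporters 3 rose (13%, against 0.791% of all genes) and none fell. The median member lay 0.19 above the median gene. Slc7a5, the light chain of the LAT1 exchanger of large neutral amino acids, had 254, 259 and 354 TPM in MTOAC libraries 1 to 3, against 117, 109 and 132 TPM in vehicle libraries 1 to 3 (1.26 ± 0.19 log2 as fitted, 1.48 relative to the median gene, adjusted p = 0.00695). Slc3a2, its heavy chain, had 255, 346 and 334 TPM with MTOAC, against 139.6, 140.5 and 147 TPM with vehicle (1.11 ± 0.19 log2 as fitted, 1.33 relative to the median gene, adjusted p = 0.0128). Both chains of the exchanger were thus higher in each MTOAC library than in any vehicle library. Slc1a4, a transporter of alanine, serine and cysteine, averaged 58.5 ± 5.18 TPM with MTOAC and 33.7 ± 2.54 TPM with vehicle (0.78 ± 0.13 log2, adjusted p = 0.0115). Of 20 cytosolic aminoacyl-tRNA synthetases, which charge tRNAs, 2 rose (10%, against 0.791% of all genes), or 5 after quantile normalization, and none fell. Cars, for cysteine, averaged 82.6 ± 18.4 TPM with MTOAC and 43.6 ± 4.70 TPM with vehicle (0.89 ± 0.17 log2, adjusted p = 0.0162), and Yars, for tyrosine, 121 ± 16.5 TPM with MTOAC and 78.1 ± 6.83 TPM with vehicle (0.62 ± 0.13 log2, adjusted p = 0.0258). The letters TGATGNAA stood in 5 of the 12 synthetase windows (41.7%), those of Aars, Gars, Iars, Tars and Yars. Srm, spermidine synthase, was among the most abundant higher genes with 150.3, 188 and 179 TPM with MTOAC, against 119, 126 and 118 TPM with vehicle (0.50 ± 0.12 log2, adjusted p = 0.034). Called in all 6 fits with 1 library removed were Slc7a5 and Slc1a4. Calls were lost without MTOAC library 1 by Cars, without MTOAC library 2 by Slc3a2, Yars and Srm, without MTOAC library 3 or vehicle library 1 by Yars and Srm, without vehicle library 2 by Cars, Yars and Srm, and without vehicle library 3 by Srm (highest adjusted p = 0.112).

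Most genes of the endoplasmic reticulum unfolded protein response were not called, as holds for all genes. Of 26 tested 1 rose (3.85%, against 0.791% of all genes), 1 fell (3.85%, against 5.75%) and 24 did not pass. The median member lay 0.06 above the median gene. Herpud1, a component of degradation at that membrane, had 41.3, 48.7 and 52.6 TPM in MTOAC libraries 1 to 3, against 23.9, 16.8 and 18.6 TPM in vehicle libraries 1 to 3, without overlap (1.23 ± 0.17 log2 as fitted, 1.45 relative to the median gene, adjusted p = 0.00677). Syvn1, a ubiquitin ligase of the same degradation pathway, had 11.7, 11.9 and 12.2 TPM with MTOAC, against 24.1, 19.2 and 18.3 TPM with vehicle (-0.73 ± 0.14 log2 as fitted, -0.51 relative to the median gene, adjusted p = 0.0165). Its exons overlap those of Mrpl49 on the opposite strand, and as the kit is not described as marking strand, reads of the pair cannot be told apart. Hspa5, the main chaperone of the compartment, averaged 275 ± 50.4 TPM with MTOAC and 312 ± 91.5 TPM with vehicle (-0.15 ± 0.20 log2, adjusted p = 0.695). With any 1 library left out, Herpud1 stayed called. In fits lacking 1 library the call was lost without MTOAC library 1 or 2 by Syvn1 (highest adjusted p = 0.0552). Median centring ended the call of Syvn1 (adjusted p = 0.0568).

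Among cytosolic chaperones the inducible HSP70 genes rose while most other members did not. Of 26 tested members 2 rose (7.69%, against 0.791% of all genes), 4 fell (15.4%, against 5.75%) and 20 did not pass. The median member lay -0.06 from the median gene. Hspa1a had 34.5, 33.5 and 31.96 TPM in MTOAC libraries 1 to 3, against 3.52, 1.86 and 2.92 TPM in vehicle libraries 1 to 3. Hspa1b had 34.9, 38.5 and 37.5 TPM in MTOAC libraries 1 to 3, against 3.93, 4.56 and 6.78 TPM in vehicle libraries 1 to 3. The groups were far apart for both genes, and Hspa1a had the highest fold change of all called genes (3.21 ± 0.38 log2 as fitted, 3.43 relative to the median gene, adjusted p = 0.00376 for Hspa1a and 2.67 ± 0.35 log2 as fitted, 2.89 relative to the median gene, adjusted p = 0.00569 for Hspa1b). The genes are near-identical copies, with 296 of 300 promoter bases the same (98.7%), so how reads were shared out is uncertain. Dnajb1, an HSP40 partner that heat shock also induces, averaged 22.9 ± 3.42 TPM with MTOAC and 24.4 ± 0.274 TPM with vehicle, with overlapping groups (-0.10 ± 0.16 log2, adjusted p = 0.749). Dnaja1, another HSP40 partner, had 176, 184 and 171 TPM in MTOAC libraries 1 to 3, against 290.1, 249.8 and 278 TPM in vehicle libraries 1 to 3, without overlap (-0.62 ± 0.09 log2 as fitted, -0.40 relative to the median gene, adjusted p = 0.00823). Stip1, which links HSP70 to HSP90, averaged 143 ± 8.14 TPM with MTOAC and 206 ± 3.88 TPM with vehicle (-0.52 ± 0.09 log2, adjusted p = 0.0142). Ubb, which encodes ubiquitin as a chain of repeated units, was among the most abundant lower genes and had 776, 827 and 542 TPM with MTOAC, against 1011, 1263 and 1250.5 TPM with vehicle, without overlap (-0.73 ± 0.15 log2 as fitted, -0.51 relative to the median gene, adjusted p = 0.0238). How reads of such repeated units were divided is uncertain. In the 6 fits that each lack 1 library, Hspa1a, Hspa1b and Dnaja1 stayed called. With 1 library left out, calls were lost without MTOAC library 1 by Stip1 and without vehicle library 2 or 3 by Ubb (highest adjusted p = 0.067). With median centring the call was lost by Dnaja1, Stip1 and Ubb (adjusted p = 0.132 to 0.334).

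Immediate early genes were the list with the highest median. Of 26 tested 6 rose (23.1%, against 0.791% of all genes), none fell and 23 fold changes were positive. The median of the list was 0.77 log2, or 0.98 above the median gene. Btg2, an early response gene outside this list, fell (-2.08 log2, given below with p53 targets). Nr4a1, an orphan nuclear receptor, had 58.4, 60.9 and 56.3 TPM in MTOAC libraries 1 to 3, against 12.3, 17.1 and 15.6 TPM in vehicle libraries 1 to 3. Its MTOAC libraries lay close together and far above the highest vehicle library (1.91 ± 0.17 log2 as fitted, 2.13 relative to the median gene, adjusted p = 0.00061). Npas4, a transcription factor known from neuronal activity, had 7.93, 7.001 and 11.1 TPM in MTOAC libraries 1 to 3, against 0.581, 0.844 and 1.004 TPM in vehicle libraries 1 to 3, a rise at low levels (2.40 ± 0.26 log2 as fitted, 2.62 relative to the median gene, adjusted p = 0.00228). Fos, a subunit of AP-1, had 9.94, 16.8 and 16.9 TPM in MTOAC libraries 1 to 3, against 3.09, 4.10 and 2.70 TPM in vehicle libraries 1 to 3 (1.83 ± 0.30 log2 as fitted, 2.05 relative to the median gene, adjusted p = 0.0119). Srf, which binds the serum response element of such genes, had 80.03, 110.1 and 152 TPM in MTOAC libraries 1 to 3, against 40.97, 23.3 and 24.1 TPM in vehicle libraries 1 to 3. The MTOAC libraries of Srf were spread over a wide range but lay above all vehicle libraries (1.92 ± 0.28 log2 as fitted, 2.14 relative to the median gene, adjusted p = 0.00677). Nfil3, a repressor of the basic leucine zipper class, averaged 25.9 ± 4.11 TPM with MTOAC and 11.1 ± 2.40 TPM with vehicle (1.16 ± 0.26 log2, adjusted p = 0.0293). Fosl2, another AP-1 subunit, was listed at 5.34, 2.78 and 2.99 TPM with MTOAC and at 0.0470, 0 and 0.0570 TPM with vehicle (2.14 ± 0.57 log2, adjusted p = 0.0482). Nr4a1, Npas4, Fos and Srf passed in each of the 6 fits without 1 library. A call was lost without MTOAC library 1, 2 or 3 or vehicle library 1 or 3 by Nfil3 (highest adjusted p = 0.131). Fosl2 lost it without any 1 of the 6 libraries. Fosl2 was not called after quantile normalization (adjusted p = 0.0688). Centring on the library median ended the call of Fosl2 (adjusted p = 0.053).

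The lists of ERK feedback genes and of clock genes also had medians above the median gene. Of 14 ERK feedback genes 2 rose (14.3%, against 0.791% of all genes) and 1 fell (7.14%, against 5.75%). The median member lay 0.86 above the median gene. Spry2, an inhibitor of receptor tyrosine kinase signalling, had 64.7, 118 and 101 TPM in MTOAC libraries 1 to 3, against 16.8, 38.2 and 19.2 TPM in vehicle libraries 1 to 3 (1.94 ± 0.47 log2 as fitted, 2.16 relative to the median gene, adjusted p = 0.0383). Dusp7, a phosphatase of ERK, averaged 23.9 ± 1.35 TPM with MTOAC and 15.1 ± 2.25 TPM with vehicle (0.64 ± 0.13 log2, adjusted p = 0.022). Etv1, an ETS transcription factor, moved the other way and averaged 60.95 ± 4.63 TPM with MTOAC and 94.5 ± 15.8 TPM with vehicle (-0.61 ± 0.15 log2, adjusted p = 0.0377). Of 13 circadian clock genes 3 rose (23.1%, against 0.791% of all genes) and none fell, with the median member 0.85 above the median gene. Nr1d1, the repressor REV-ERB alpha, had 10.8, 10.1 and 14.3 TPM in MTOAC libraries 1 to 3, against 4.88, 4.08 and 4.78 TPM in vehicle libraries 1 to 3, without overlap (1.18 ± 0.18 log2 as fitted, 1.40 relative to the median gene, adjusted p = 0.0094). It overlaps Thra on the opposite strand. Ciart and Per2, repressors of the clock, averaged 7.66 ± 0.801 TPM with MTOAC and 2.99 ± 0.565 TPM with vehicle for Ciart (1.12 ± 0.22 log2, adjusted p = 0.0184) and 5.27 ± 0.674 TPM with MTOAC and 2.58 ± 0.397 TPM with vehicle for Per2 (0.81 ± 0.19 log2, adjusted p = 0.0341). Every fit without 1 of the 6 libraries still called Nr1d1. Leaving out 1 library, the call was lost without MTOAC library 1 or 2 by Spry2, Dusp7, Etv1 and Ciart, without MTOAC library 3 by Spry2 and Etv1, without vehicle library 1 by Spry2, Etv1 and Ciart, without vehicle library 2 by Dusp7 and Ciart, and without vehicle library 3 by Spry2, Dusp7 and Etv1 (highest adjusted p = 0.121). Per2 lost it without any 1 of the 6 libraries. Etv1 was not called after quantile normalization (adjusted p = 0.0733). Median centring ended the call of Spry2 and Etv1 (adjusted p = 0.0501 to 0.191).

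Among genes of the OPC state itself, a few were lower by a large factor with MTOAC while the median of the list stayed near the median gene. Of 24 tested OPC markers 4 fell (16.7%, against 5.75% of all genes), none rose and 20 did not pass, and the median member lay -0.08 from the median gene. Olig1 had 613, 525 and 456 TPM in MTOAC libraries 1 to 3, against 1016, 1282 and 1284 TPM in vehicle libraries 1 to 3. The highest MTOAC library was well under the lowest vehicle library (-1.17 ± 0.16 log2 as fitted, -0.95 relative to the median gene, adjusted p = 0.00647). Gpr17, a receptor of OPCs committed to differentiation, had 15.96, 10.5 and 14.3 TPM in MTOAC libraries 1 to 3, against 62.4, 50.7 and 63.8 TPM in vehicle libraries 1 to 3, again without overlap (-2.05 ± 0.30 log2 as fitted, -1.83 relative to the median gene, adjusted p = 0.00745). Lims2, an adaptor of integrin signalling whose exons overlap those of Gpr17 on the opposite strand, was also called lower, with 2.91, 15.2 and 8.85 TPM with MTOAC, against 65.2, 16.1 and 44.8 TPM with vehicle (-2.13 ± 0.56 log2, adjusted p = 0.0472), and reads of the pair cannot be told apart without strand. Sox8, a relative of Sox10, had 108, 65.5 and 79.2 TPM with MTOAC, against 261, 137 and 229 TPM with vehicle (-1.28 ± 0.33 log2 as fitted, -1.06 relative to the median gene, adjusted p = 0.0429). The called markers thus included nuclear factors and surface receptors. Pdgfra, the receptor for the mitogen PDGF, averaged 13.3 ± 3.06 TPM with MTOAC and 31.4 ± 3.62 TPM with vehicle (-1.20 ± 0.28 log2, adjusted p = 0.0319). The lineage factors Olig2 and Sox10 did not pass. Olig2 had 357, 379.8 and 263 TPM with MTOAC, against 351, 537 and 488 TPM with vehicle, with overlap (-0.46 ± 0.18 log2, adjusted p = 0.156). Sox10 had 25.7, 7.15 and 21.9 TPM with MTOAC, against 45.1, 19.6 and 60.99 TPM with vehicle, where vehicle library 2 stood under MTOAC libraries 1 and 3 (-1.19 ± 0.71 log2, adjusted p = 0.335). Omg, a myelin glycoprotein on the oligodendrocyte surface, was among the genes with the smallest p-values, with 10.2, 8.98 and 13.6 TPM in MTOAC libraries 1 to 3, against 32.6, 33.05 and 29.5 TPM in vehicle libraries 1 to 3 and no overlap (-1.47 ± 0.16 log2 as fitted, -1.25 relative to the median gene, adjusted p = 0.00228). Myt1, a zinc finger factor of the lineage, had 4.64, 2.90 and 5.21 TPM with MTOAC, against 31.7, 14.3 and 14.3 TPM with vehicle (-1.94 ± 0.41 log2 as fitted, -1.72 relative to the median gene, adjusted p = 0.0232). Removing 1 library at a time left Olig1, Gpr17 and Omg called in all 6 fits. The call was lost without MTOAC library 1 or 2 or vehicle library 1 by Lims2, Sox8 and Myt1 and without MTOAC library 3 or vehicle library 3 by Lims2 and Sox8 (highest adjusted p = 0.14). Pdgfra lost it without any 1 of the 6 libraries. Lims2, Sox8 and Pdgfra were not called after quantile normalization (adjusted p = 0.0704 to 0.123). With median centring the call was lost by Lims2, Sox8 and Pdgfra (adjusted p = 0.0807 to 0.125).

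Genes of myelin and later differentiation gave 1 call. Of 30 listed, 16 were tested, 1 fell (6.25%, near the 5.75% of all genes) and none rose. Cnp, an enzyme of myelin and of its precursors, averaged 33.8 ± 2.29 TPM with MTOAC and 52.98 ± 6.10 TPM with vehicle (-0.63 ± 0.13 log2, adjusted p = 0.0232), and its exons overlap those of Dnajc7 on the opposite strand. Mbp, a major myelin protein, had 4.49, 1.13 and 0.952 TPM with MTOAC, against 5.43, 0.899 and 1.96 TPM with vehicle, with overlap (-0.22 ± 0.60 log2, adjusted p = 0.864). Fyn, a kinase that acts early in differentiation, averaged 276 ± 16.3 TPM with MTOAC and 316 ± 22.5 TPM with vehicle (-0.20 ± 0.09 log2, adjusted p = 0.214). Calls were lost without MTOAC library 2 or vehicle library 1 or 3 by Cnp (highest adjusted p = 0.0816). Cnp was not called after quantile normalization (adjusted p = 0.069). Centring on the library median ended the call of Cnp (adjusted p = 0.0946).

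**Figure D3:**
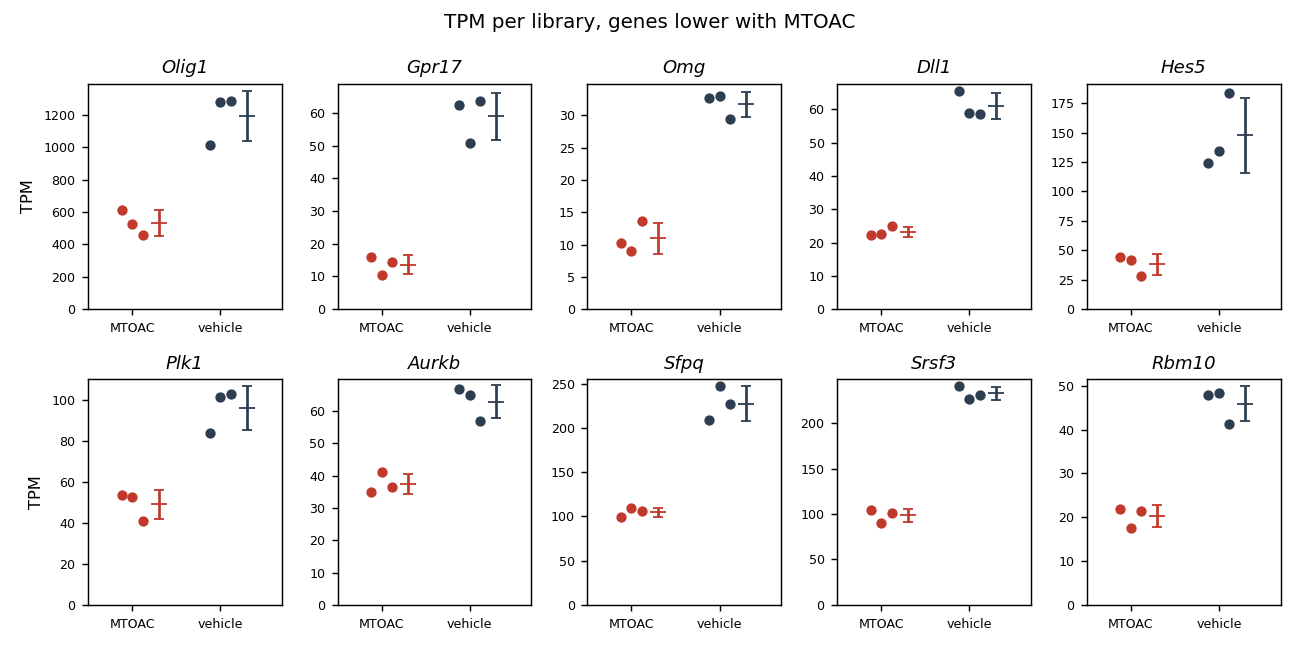
TPM in each library (vertical axes start at 0) for 10 genes called lower with MTOAC, with MTOAC libraries 1 to 3 in red on the left and vehicle libraries 1 to 3 in dark blue on the right of each panel, and the mean ± SD (n = 3) beside the points. The MTOAC points lie under all vehicle points in each panel, as in 689 of the 690 genes called lower.

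A Notch ligand and some targets of the pathway were lower with MTOAC, another ligand was higher, and most Notch genes were not called. Of 28 tested 5 fell (17.9%, against 5.75% of all genes), 1 rose (3.57%) and 22 did not pass, with 3 lower and 1 higher after quantile normalization and the median member -0.15 from the median gene. Dll1, a Notch ligand, had 22.3, 22.6 and 24.8 TPM in MTOAC libraries 1 to 3, against 65.6, 58.8 and 58.7 TPM in vehicle libraries 1 to 3. The spread within each group was small, and the adjusted p equalled that of Chac1 (-1.36 ± 0.12 log2 as fitted, -1.14 relative to the median gene, adjusted p = 0.0006). Hes5 and Nrarp, targets of the pathway, were lower too. Hes5, a transcriptional repressor induced by Notch, had 44.5, 41.4 and 27.99 TPM in MTOAC libraries 1 to 3, against 125, 135 and 184 TPM in vehicle libraries 1 to 3 (-1.94 ± 0.36 log2 as fitted, -1.72 relative to the median gene, adjusted p = 0.0151). Nrarp, a feedback inhibitor that Notch induces, had 6.64, 3.88 and 4.92 TPM in MTOAC libraries 1 to 3, against 38.4, 19.1 and 48.3 TPM in vehicle libraries 1 to 3 (-2.49 ± 0.48 log2 as fitted, -2.27 relative to the median gene, adjusted p = 0.0165). For Nrarp the vehicle libraries differed among themselves, but none came near the MTOAC libraries. Lfng, which modifies Notch by adding sugar, averaged 19.9 ± 4.41 TPM with MTOAC and 32.02 ± 2.26 TPM with vehicle (-0.68 ± 0.18 log2, adjusted p = 0.0462), and Spen, a corepressor of Notch targets, 18.1 ± 3.67 TPM with MTOAC and 31.02 ± 6.12 TPM with vehicle (-0.74 ± 0.19 log2, adjusted p = 0.0405). Jag1, another ligand, rose and had 23.4, 22.2 and 34.7 TPM with MTOAC, against 11.7, 14.9 and 13.004 TPM with vehicle, without overlap (0.95 ± 0.18 log2 as fitted, 1.17 relative to the median gene, adjusted p = 0.0173). Of 21 BMP and ID genes 1 rose (4.76%, against 0.791% of all genes) and 1 fell (4.76%, against 5.75%). Id3, an inhibitor of basic helix-loop-helix factors, had 64.6, 54.7 and 68.4 TPM with MTOAC, against 119, 128 and 207 TPM with vehicle (-1.22 ± 0.26 log2 as fitted, -1.01 relative to the median gene, adjusted p = 0.0241), while its relative Id1 averaged 27.9 ± 6.50 TPM with MTOAC and 21.5 ± 4.43 TPM with vehicle (0.36 ± 0.22 log2, adjusted p = 0.354). Smurf1, a ubiquitin ligase of BMP signalling, averaged 14.4 ± 2.81 TPM with MTOAC and 7.45 ± 1.43 TPM with vehicle (0.87 ± 0.17 log2, adjusted p = 0.0184). In the Wnt list 0 of 24 and in the Hedgehog list 0 of 9 were called, against 6.54% of all genes. Called in all 6 fits with 1 library removed were Dll1 and Hes5. In fits lacking 1 library the call was lost without MTOAC library 1 by Spen and Id3, without MTOAC library 2 by Nrarp, Spen, Id3 and Smurf1, without vehicle library 1 by Nrarp, Spen and Jag1, without vehicle library 2 by Smurf1, and without vehicle library 3 by Nrarp, Spen and Id3 (highest adjusted p = 0.118). Lfng lost it without any 1 of the 6 libraries. Lfng, Spen and Id3 were not called after quantile normalization (adjusted p = 0.0558 to 0.29). Median centring ended the call of Lfng, Spen and Id3 (adjusted p = 0.0697 to 0.333).

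The largest share of falls in any pathway list was in G2 and mitosis. Of 35 tested genes 17 fell (48.6%, against 5.75% of all genes), none rose, and 34 lay under the median gene, with the median member at -0.62 log2, or -0.40 relative to it. After quantile normalization 14 were called lower, against 1.81% of all genes. Plk1, a kinase of mitotic entry, had 53.5, 52.7 and 40.8 TPM in MTOAC libraries 1 to 3, against 83.8, 101 and 103 TPM in vehicle libraries 1 to 3, without overlap (-0.96 ± 0.14 log2 as fitted, -0.74 relative to the median gene, adjusted p = 0.00677). Aurkb, the kinase of the chromosomal passenger complex, had 34.8, 41.01 and 36.4 TPM in MTOAC libraries 1 to 3, against 66.8, 65.04 and 57.05 TPM in vehicle libraries 1 to 3 (-0.74 ± 0.12 log2 as fitted, -0.52 relative to the median gene, adjusted p = 0.0105). Cdc25c, the phosphatase that activates CDK1, had 13.8, 15.5 and 14.2 TPM with MTOAC, against 42.6, 26.3 and 25.4 TPM with vehicle (-1.03 ± 0.18 log2 as fitted, -0.81 relative to the median gene, adjusted p = 0.0142). In none of these genes, nor in those that follow, did the groups overlap, which holds for 689 of the 690 genes called lower. Kif2c and Kif20a, mitotic kinesins, averaged 22.9 ± 2.33 TPM with MTOAC and 42.8 ± 5.59 TPM with vehicle for Kif2c (-0.87 ± 0.14 log2, adjusted p = 0.0106) and 33.03 ± 6.01 TPM with MTOAC and 69.6 ± 12.6 TPM with vehicle for Kif20a (-1.05 ± 0.19 log2, adjusted p = 0.0151). Aurka, a kinase of the spindle poles, averaged 41.7 ± 6.66 TPM with MTOAC and 75.6 ± 11.5 TPM with vehicle (-0.84 ± 0.15 log2, adjusted p = 0.0131), and Bub1b, of the spindle checkpoint, 21.1 ± 2.65 TPM with MTOAC and 41.2 ± 5.53 TPM with vehicle (-0.93 ± 0.17 log2, adjusted p = 0.0151). Mki67, the antigen Ki-67 of dividing cells, had 35.9, 34.6 and 46.5 TPM with MTOAC, against 87.7, 68.3 and 60.9 TPM with vehicle (-0.87 ± 0.15 log2 as fitted, -0.65 relative to the median gene, adjusted p = 0.0141). With any 1 library left out, Plk1, Aurkb, Cdc25c and Kif2c stayed called. With 1 library left out, calls were lost without MTOAC library 2 by Kif20a, Aurka, Bub1b and Mki67 (highest adjusted p = 0.0556). With median centring the call was lost by Plk1 and Aurkb (adjusted p = 0.0683 to 0.0695).

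In G1 and S phase, cyclin E1 was the clearest fall. Of 39 genes tested 3 fell (7.69%, near the 5.75% of all genes) and none rose, with the median member -0.11 from the median gene. Ccne1, cyclin E1, averaged 9.05 ± 1.46 TPM with MTOAC and 22.4 ± 2.56 TPM with vehicle, without overlap (-1.23 ± 0.21 log2 as fitted, -1.01 relative to the median gene, adjusted p = 0.0119). E2f2, a transcription factor of S phase genes, averaged 1.67 ± 0.345 TPM with MTOAC and 4.01 ± 0.850 TPM with vehicle (-0.90 ± 0.22 log2, adjusted p = 0.0391), and Tk1, thymidine kinase, 34.4 ± 2.11 TPM with MTOAC and 57.9 ± 7.54 TPM with vehicle (-0.73 ± 0.15 log2, adjusted p = 0.0221). Ccnd1, cyclin D1, averaged 204 ± 52.8 TPM with MTOAC and 247 ± 39.6 TPM with vehicle, with overlapping groups (-0.29 ± 0.23 log2, adjusted p = 0.479). Of 23 p53 targets 1 was called, a fall (4.35%, against 5.75% of all genes). Btg2, an antiproliferative gene that is also an early response gene, fell and had 47.6, 23.6 and 25.1 TPM in MTOAC libraries 1 to 3, against 150.3, 115 and 132 TPM in vehicle libraries 1 to 3 (-2.08 ± 0.38 log2 as fitted, -1.86 relative to the median gene, adjusted p = 0.0146). Of 23 genes of the BCL2 family and caspases 5 fell (21.7%, against 5.75% of all genes) and none rose. But 1 was lower after quantile normalization. That gene was Casp6, an executioner caspase, with 12.5, 12.99 and 12.5 TPM with MTOAC, against 37.3, 23.3 and 22.9 TPM with vehicle (-1.04 ± 0.20 log2 as fitted, -0.82 relative to the median gene, adjusted p = 0.0173). The others were Bcl2l11, the death activator BIM, at -1.10 log2 and Fadd, an adaptor of death receptors, at -0.94 log2. Birc2, an inhibitor of apoptosis, lay at -0.70 log2 and Diablo, which antagonises such inhibitors, at -0.54 log2. In the 6 fits that each lack 1 library, Ccne1 stayed called. A call was lost without MTOAC library 1 by Tk1 and Casp6, without MTOAC library 2 by Tk1, Btg2 and Casp6, and without vehicle library 2 or 3 by Tk1 (highest adjusted p = 0.142). E2f2, Bcl2l11, Fadd, Birc2 and Diablo lost it without any 1 of the 6 libraries. E2f2, Tk1, Bcl2l11, Fadd, Birc2 and Diablo were not called after quantile normalization (adjusted p = 0.0945 to 0.189). Centring on the library median ended the call of E2f2, Tk1, Bcl2l11, Fadd, Birc2 and Diablo (adjusted p = 0.0924 to 0.165).

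Some RNA-binding proteins of the RBM family fell, and most were not called. Of 39 tested members 8 fell (20.5%, against 5.75% of all genes), none rose and 31 did not pass. After quantile normalization 8 were lower and 2 higher, and the median member lay -0.05 from the median gene. Rbm10, a splicing regulator, had 21.9, 17.5 and 21.4 TPM in MTOAC libraries 1 to 3, against 48.0, 48.3 and 41.3 TPM in vehicle libraries 1 to 3 (-1.14 ± 0.17 log2 as fitted, -0.92 relative to the median gene, adjusted p = 0.00677). Rbm14, a paraspeckle component, had 27.7, 20.96 and 23.4 TPM with MTOAC, against 47.98, 54.2 and 49.5 TPM with vehicle (-1.05 ± 0.13 log2 as fitted, -0.83 relative to the median gene, adjusted p = 0.00483). Groups did not overlap for either gene. Rbmxl1 and Rbmx, close copies of each other, averaged 91.7 ± 5.74 TPM with MTOAC and 151 ± 9.54 TPM with vehicle for Rbmxl1 (-0.71 ± 0.10 log2, adjusted p = 0.00677) and 44.96 ± 4.51 TPM with MTOAC and 82.99 ± 18.4 TPM with vehicle for Rbmx (-0.85 ± 0.16 log2, adjusted p = 0.017). The paralogs Rbm4 and Rbm4b lay at -1.02 and -0.82 log2, and Rbm12b2 at -1.03 log2. Rbm14 and Rbm4 share exons with the readthrough model Gm21992, and reads of paralogs may have been divided in different ways. Rbm12 had 1.73, 2.35 and 2.12 TPM in MTOAC libraries 1 to 3, against 13.99, 13.2 and 11.9 TPM in vehicle libraries 1 to 3 (-2.20 ± 0.31 log2 as fitted, -1.98 relative to the median gene, adjusted p = 0.00677). Its exons overlap those of Cpne1, a calcium-dependent membrane-binding protein, on the same strand. Cpne1, named after its values were seen, moved the other way, with 57.5, 58.5 and 66.5 TPM in MTOAC libraries 1 to 3, against 24.9, 29.9 and 33.5 TPM in vehicle libraries 1 to 3 (1.03 ± 0.15 log2 as fitted, 1.25 relative to the median gene, adjusted p = 0.00677). Whether reads passed from one model to the other was not tested. Rbm10, Rbm14, Rbmxl1, Rbm4 and Rbm12 passed in each of the 6 fits without 1 library. Leaving out 1 library, the call was lost without MTOAC library 1 or 2 by Rbmx, Rbm4b and Rbm12b2, without vehicle library 1 by Rbm4b, and without vehicle library 2 by Rbmx and Rbm4b (highest adjusted p = 0.0816). Median centring ended the call of Rbmxl1 and Rbm4b (adjusted p = 0.0501 to 0.0916).

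Splicing and paraspeckle genes gave clear falls in single genes. Of 11 paraspeckle genes 3 fell (27.3%, against 5.75% of all genes) and none rose. Sfpq, a splicing factor that nucleates paraspeckles, had 99.5, 109 and 106 TPM in MTOAC libraries 1 to 3, against 209, 248 and 227 TPM in vehicle libraries 1 to 3. The highest MTOAC library lay far under the lowest vehicle library (-1.11 ± 0.10 log2 as fitted, -0.89 relative to the median gene, adjusted p = 0.0006). Tardbp, which encodes TDP-43, had 286, 261 and 333 TPM with MTOAC, against 519, 437 and 428 TPM with vehicle (-0.65 ± 0.11 log2 as fitted, -0.43 relative to the median gene, adjusted p = 0.0133). Of 35 SR proteins and hnRNPs 8 fell (22.9%, against 5.75% of all genes) and none rose, with 5 lower and 1 higher after quantile normalization. The median member lay 0.02 from the median gene. The median member thus stood at the median gene while single genes fell. Srsf3, an SR protein, had 104, 90.3 and 101 TPM in MTOAC libraries 1 to 3, against 241, 227 and 231 TPM in vehicle libraries 1 to 3 (-1.23 ± 0.17 log2 as fitted, -1.02 relative to the median gene, adjusted p = 0.00647). Hnrnpu, a nuclear matrix RNA-binding protein, averaged 226 ± 20.7 TPM with MTOAC and 336 ± 9.02 TPM with vehicle (-0.58 ± 0.10 log2, adjusted p = 0.013). Srsf1, Srsf6, Srsf7 and Tra2a, further splicing regulators, lay at -0.78, -0.73, -0.53 and -0.88 log2, and Hnrnpm and Hnrnpul2 at -0.50 and -0.58 log2. Of 10 CDC-like, DYRK and SR protein kinases limma called none, against 6.54% of all genes. Every fit without 1 of the 6 libraries still called Sfpq, Srsf3 and Hnrnpu. The call was lost without MTOAC library 1 by Srsf1, Srsf6, Tra2a and Hnrnpm, without MTOAC library 2 by Tardbp, Srsf1, Srsf6, Srsf7, Tra2a, Hnrnpm and Hnrnpul2, without MTOAC library 3 by Srsf1, without vehicle library 1 by Tra2a and Hnrnpm, without vehicle library 2 by Srsf1 and Hnrnpm, and without vehicle library 3 by Srsf1, Tra2a and Hnrnpm (highest adjusted p = 0.142). Srsf1, Srsf7 and Hnrnpm were not called after quantile normalization (adjusted p = 0.0901 to 0.224). With median centring the call was lost by Hnrnpu, Srsf1, Srsf6, Srsf7, Hnrnpm and Hnrnpul2 (adjusted p = 0.0664 to 0.36).

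Zinc finger and chromatin genes were called lower at shares near that of all genes. Of 331 Zfp genes tested 25 fell (7.55%, against 5.75% of all genes) and 1 rose (0.302%), and 279 had a negative fold change, with the median member -0.15 from the median gene. After quantile normalization 5 were lower and 3 higher. Zfp251 averaged 10.9 ± 0.641 TPM with MTOAC and 19.4 ± 1.30 TPM with vehicle (-0.78 ± 0.13 log2, adjusted p = 0.0115), Zfp646 11.7 ± 1.40 TPM with MTOAC and 22.9 ± 2.20 TPM with vehicle (-0.91 ± 0.16 log2, adjusted p = 0.0135) and Zfp276 4.32 ± 1.30 TPM with MTOAC and 11.3 ± 2.96 TPM with vehicle (-1.21 ± 0.25 log2, adjusted p = 0.0213). Of 51 chromatin modifiers 3 fell (5.88%), close to the share of all genes. Chd4, the remodeller of the NuRD complex, had 64.4, 59.8 and 68.2 TPM with MTOAC, against 134, 107 and 117 TPM with vehicle (-0.88 ± 0.12 log2 as fitted, -0.66 relative to the median gene, adjusted p = 0.00677). Smarca4, the ATPase of BAF complexes, and Chd7, a remodeller that acts in OPCs, lay at -0.43 and -0.59 log2. Polr2d was the 1 called gene of 42 Mediator and RNA polymerase II subunits (2.38%, against 5.75% of all genes), at -0.60 log2. Removing 1 library at a time left Zfp251 and Chd4 called in all 6 fits. Calls were lost without MTOAC library 1 by Smarca4, without MTOAC library 2 by Zfp646, Zfp276, Smarca4 and Polr2d, and without vehicle library 1 or 2 by Zfp276 and Smarca4 (highest adjusted p = 0.136). Chd7 lost it without any 1 of the 6 libraries. Smarca4 and Chd7 were not called after quantile normalization (adjusted p = 0.128 to 0.144). Centring on the library median ended the call of Smarca4, Chd7 and Polr2d (adjusted p = 0.0749 to 0.379).

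The called genes of lipid synthesis were few in number and all lower, though their shares lay above that of all genes. Of 25 cholesterol synthesis genes 3 fell (12%, against 5.75% of all genes), none of them after quantile normalization. The median member lay 0.05 above the median gene. Mvk, mevalonate kinase, averaged 22.6 ± 1.66 TPM with MTOAC and 39.7 ± 4.49 TPM with vehicle (-0.78 ± 0.15 log2, adjusted p = 0.0181). Fdps, which makes farnesyl diphosphate, averaged 38.5 ± 5.78 TPM with MTOAC and 85.04 ± 20.7 TPM with vehicle (-1.11 ± 0.22 log2, adjusted p = 0.0184). Both were lower in every MTOAC library than in any vehicle library. Hmgcs1, at the start of the pathway, had 571, 655 and 848 TPM with MTOAC, against 1033, 789 and 729.6 TPM with vehicle, with overlap (-0.30 ± 0.16 log2, adjusted p = 0.291). Of 14 fatty acid synthesis genes 2 fell (14.3%, against 5.75% of all genes). Elovl6, an elongase, had 35.2, 39.7 and 47.3 TPM with MTOAC, against 82.6, 66.8 and 63.3 TPM with vehicle (-0.79 ± 0.13 log2 as fitted, -0.57 relative to the median gene, adjusted p = 0.0128), and Fasn, fatty acid synthase, averaged 137 ± 27.1 TPM with MTOAC and 216 ± 21.2 TPM with vehicle (-0.67 ± 0.17 log2, adjusted p = 0.0419). Of 29 phospholipid and sphingolipid genes 3 fell (10.3%, against 5.75% of all genes). Sptlc1, a subunit of the first enzyme of sphingolipid synthesis, had 13.05, 10.9 and 13.8 TPM with MTOAC, against 34.7, 25.5 and 23.3 TPM with vehicle (-1.07 ± 0.18 log2 as fitted, -0.85 relative to the median gene, adjusted p = 0.0119). Pcyt1b and Chkb, of phosphatidylcholine synthesis, lay at -0.99 and -1.16 log2. Called in all 6 fits with 1 library removed were Elovl6 and Sptlc1. In fits lacking 1 library the call was lost without MTOAC library 1 by Fasn and Pcyt1b, without MTOAC library 2 by Mvk, Fdps, Fasn and Pcyt1b, without vehicle library 1 by Fasn, without vehicle library 2 by Mvk and Fasn, and without vehicle library 3 by Mvk, Fdps and Fasn (highest adjusted p = 0.115). Chkb lost it without any 1 of the 6 libraries. Mvk, Fdps, Fasn, Pcyt1b and Chkb were not called after quantile normalization (adjusted p = 0.0511 to 0.124). Median centring ended the call of Mvk, Fdps, Fasn, Pcyt1b and Chkb (adjusted p = 0.0501 to 0.265).

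Several lists, large and small, held no called gene. These were the 84 nuclear genes of oxidative phosphorylation, the 80 cytosolic ribosomal proteins, the 33 lysosome and autophagy genes, the 22 glycolysis and hypoxia genes, the 13 mitochondrially encoded genes, the 10 inflammatory genes and the 7 metal response genes, against 6.54% called among all genes. Their medians lay above the median gene, at 0.32 for cytosolic ribosomal proteins, 0.26 for lysosome and autophagy genes and 0.16 for oxidative phosphorylation genes. But after quantile normalization the ribosomal median was 0.05 and that of oxidative phosphorylation 0.02. For mitochondrially encoded genes the median lay 0.34 above the median gene. It ran from -0.10 to 0.58 with 1 library left out and was -0.07 after quantile normalization. The glycolysis and hypoxia median went from 0.09 to -0.03 with that normalization. A lack of calls sets no limit on how far a gene may have changed. The lists of 13, 10 and 7 genes are also too short for 0 calls to stand out from 6.54%. Among uncalled members, Uqcrc1, a core protein of respiratory complex III, lay at 1.12 log2 (adjusted p = 0.112) and Mcoln1, a lysosomal cation channel, at -1.36 log2 (adjusted p = 0.0865). The fold change of mt-Nd3, 4.13 log2 (adjusted p = 0.408), rested on the 0 in vehicle library 1, and without that library it was -0.43 log2 (adjusted p = 0.0497). In the NRF2 list 1 of 24 rose (4.17%, against 0.791% of all genes) and 1 fell (4.17%, against 5.75%). Hmox1, heme oxygenase 1, had 74.4, 94.5 and 81.3 TPM with MTOAC, against 38.5, 46.3 and 55.7 TPM with vehicle (0.83 ± 0.18 log2 as fitted, 1.05 relative to the median gene, adjusted p = 0.0242). Keap1, the inhibitor of NRF2, averaged 17.7 ± 3.01 TPM with MTOAC and 30.7 ± 5.19 TPM with vehicle (-0.76 ± 0.19 log2, adjusted p = 0.0436). Of 77 mitochondrial ribosomal proteins 5 fell (6.49%) and 1 rose (1.30%), and of 34 proteasome subunits 1 fell (2.94%), shares near those of all genes. With 1 library left out, calls were lost without MTOAC library 2 or vehicle library 1 or 2 by Hmox1 (highest adjusted p = 0.123). Keap1 lost it without any 1 of the 6 libraries. Keap1 was not called after quantile normalization (adjusted p = 0.185). With median centring the call was lost by Keap1 (adjusted p = 0.188).

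**Figure D4:**
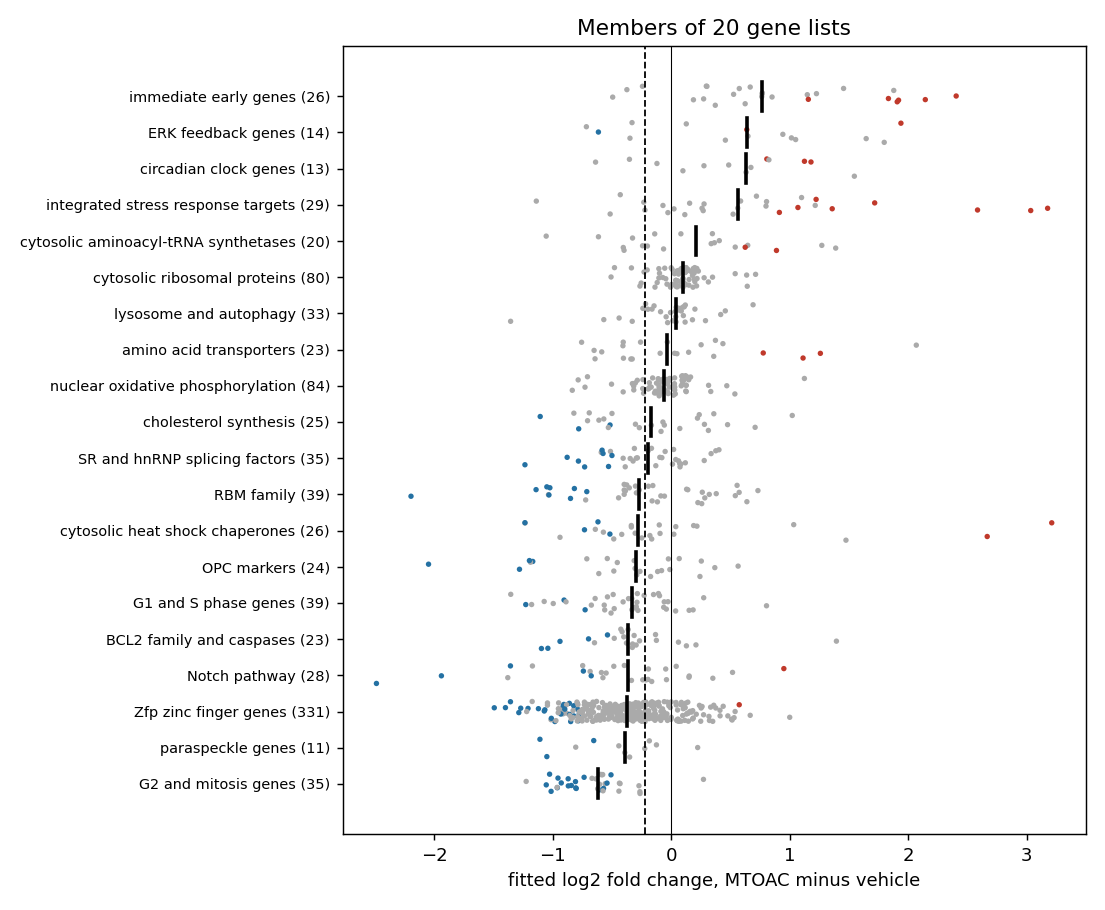
Fitted log2 fold change of MTOAC minus vehicle (horizontal axis) for the tested members of 20 gene lists (rows, with the number of members), each point a gene, red if called higher, blue if called lower and grey otherwise, with a bar at the median of the list and the dashed line at the median of all tested genes (-0.22). The lists at the top, immediate early genes, ERK feedback genes, circadian clock genes and integrated stress response targets, have medians between 0.56 and 0.77, and G2 and mitosis genes at the bottom have a median of -0.62.

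Further genes were named for a far fold change, a small p-value or a high level. Pafah1b1, which encodes the dynein regulator LIS1, rose and had 41.4, 26.8 and 39.2 TPM in MTOAC libraries 1 to 3, against 5.93, 11.6 and 3.15 TPM in vehicle libraries 1 to 3 (2.34 ± 0.39 log2 as fitted, 2.56 relative to the median gene, adjusted p = 0.0119). Ubap2, a ubiquitin-associated protein gene, fell and had 1.64, 0.803 and 4.20 TPM in MTOAC libraries 1 to 3, against 33.9, 42.3 and 16.9 TPM in vehicle libraries 1 to 3 (-3.37 ± 0.63 log2 as fitted, -3.15 relative to the median gene, adjusted p = 0.0155). Rfx5, a factor of MHC class II promoters, had 7.36, 4.35 and 4.39 TPM with MTOAC, against 26.4, 19.6 and 17.9 TPM with vehicle (-1.82 ± 0.33 log2 as fitted, -1.60 relative to the median gene, adjusted p = 0.0151). Apc2, a relative of the Wnt regulator APC, had 4.84, 3.39 and 1.54 TPM with MTOAC, against 16.1, 14.3 and 13.5 TPM with vehicle (-1.95 ± 0.38 log2 as fitted, -1.74 relative to the median gene, adjusted p = 0.0173), and its exons overlap another model on the opposite strand. Groups that do not overlap were a condition for naming genes by a far fold change, so their lack of overlap adds nothing here. Single libraries varied, in some of these genes several-fold. Map2, a microtubule protein of neurons and the 1 called gene of the neuronal markers, was among the abundant lower genes with 234, 235 and 313 TPM with MTOAC, against 416, 431 and 388 TPM with vehicle (-0.67 ± 0.12 log2 as fitted, -0.45 relative to the median gene, adjusted p = 0.0155). Olfm2, a secreted olfactomedin, was among the abundant higher genes with 264, 248 and 275 TPM with MTOAC, against 185, 175 and 193 TPM with vehicle (0.50 ± 0.10 log2 as fitted, 0.72 relative to the median gene, adjusted p = 0.022). Btbd17 was among the smallest p-values with 22.7, 26.3 and 19.7 TPM with MTOAC, against 46.4, 48.96 and 55.1 TPM with vehicle (-1.10 ± 0.13 log2 as fitted, -0.88 relative to the median gene, adjusted p = 0.00376). With any 1 library left out, Pafah1b1 and Btbd17 stayed called. A call was lost without MTOAC library 1 by Map2 and Olfm2, without MTOAC library 2 by Ubap2, Rfx5, Apc2, Map2 and Olfm2, without vehicle library 1 by Apc2, and without vehicle library 2 by Olfm2 (highest adjusted p = 0.0646). Centring on the library median ended the call of Map2 (adjusted p = 0.115).

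MTOAC was also set against the other compounds directly, which avoids the shared vehicle libraries. Each compound was given at its own IC75, so the doses differ and the values below stand side by side. Against vehicle, limma called 785 genes with MTOAC, 8 with CPC (0.0666% of genes) and 153 with AEBDAC (1.27%), and these comparisons share the 3 vehicle libraries. In the direct comparisons limma called 0 genes for MTOAC against CPC, with 449 at an unadjusted p under 0.05 (3.74%), and 0 for MTOAC against AEBDAC, with 307 (2.56%). With the library number added to the fit as a block, both counts stayed at 0. The intervals below come from the fit without this block, though same-numbered MTOAC and AEBDAC libraries deviated together (r = 0.296 to 0.359). No gene was thus shown to respond differently to MTOAC, which does not show that the compounds act alike. Hspa1a had 34.5, 33.5 and 31.96 TPM with MTOAC, 3.98, 10.2 and 3.15 TPM with CPC, 8.55, 21.5 and 13.6 TPM with AEBDAC and 3.52, 1.86 and 2.92 TPM with vehicle. The MTOAC libraries were the highest, and MTOAC minus CPC was 2.48 log2 (95% interval 1.65 to 3.31, adjusted p = 0.379) and MTOAC minus AEBDAC 1.23 log2 (95% interval 0.40 to 2.06, adjusted p = 1). Hspa1b had 34.9, 38.5 and 37.5 TPM with MTOAC, 5.58, 13.4 and 5.53 TPM with CPC, 9.14, 21.9 and 16.9 TPM with AEBDAC and 3.93, 4.56 and 6.78 TPM with vehicle, in the same order. For Hspa1b, MTOAC minus CPC was 2.15 log2 (95% interval 1.39 to 2.92, adjusted p = 0.379) and MTOAC minus AEBDAC 1.24 log2 (95% interval 0.47 to 2.01, adjusted p = 1). Chac1 had 55.8, 56.3 and 42.2 TPM with MTOAC, 32.96, 45.9 and 40.04 TPM with CPC, 47.1, 60.7 and 54.9 TPM with AEBDAC and 3.05, 6.50 and 7.42 TPM with vehicle, so that the 3 compounds lay close together and far above vehicle. The difference for Chac1 was 0.37 log2 (95% interval -0.19 to 0.92, adjusted p = 1) against CPC and -0.08 log2 (95% interval -0.63 to 0.48, adjusted p = 1) against AEBDAC. Olig1 had 613, 525 and 456 TPM with MTOAC, 786, 704 and 855 TPM with CPC, 819, 569.7 and 656 TPM with AEBDAC and 1016, 1282 and 1284 TPM with vehicle. MTOAC minus CPC was -0.56 log2 (95% interval -0.91 to -0.21, adjusted p = 1) for Olig1 and MTOAC minus AEBDAC -0.35 log2 (95% interval -0.70 to -0.0019, adjusted p = 1). The intervals for Olig1 lie below 0, but the adjusted p-values are far from the threshold. Gpr17 had 15.96, 10.5 and 14.3 TPM with MTOAC, 40.7, 21.98 and 36.2 TPM with CPC, 33.1, 13.6 and 23.7 TPM with AEBDAC and 62.4, 50.7 and 63.8 TPM with vehicle, with differences of -1.19 log2 (95% interval -1.86 to -0.52, adjusted p = 1) against CPC and -0.68 log2 (95% interval -1.35 to -0.01, adjusted p = 1) against AEBDAC. Dll1 had 22.3, 22.6 and 24.8 TPM with MTOAC, 33.9, 29.8 and 38.02 TPM with CPC, 29.7, 31.97 and 29.7 TPM with AEBDAC and 65.6, 58.8 and 58.7 TPM with vehicle, with differences of -0.52 log2 (95% interval -0.78 to -0.26, adjusted p = 1) against CPC and -0.38 log2 (95% interval -0.64 to -0.12, adjusted p = 1) against AEBDAC.

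**Figure D5:**
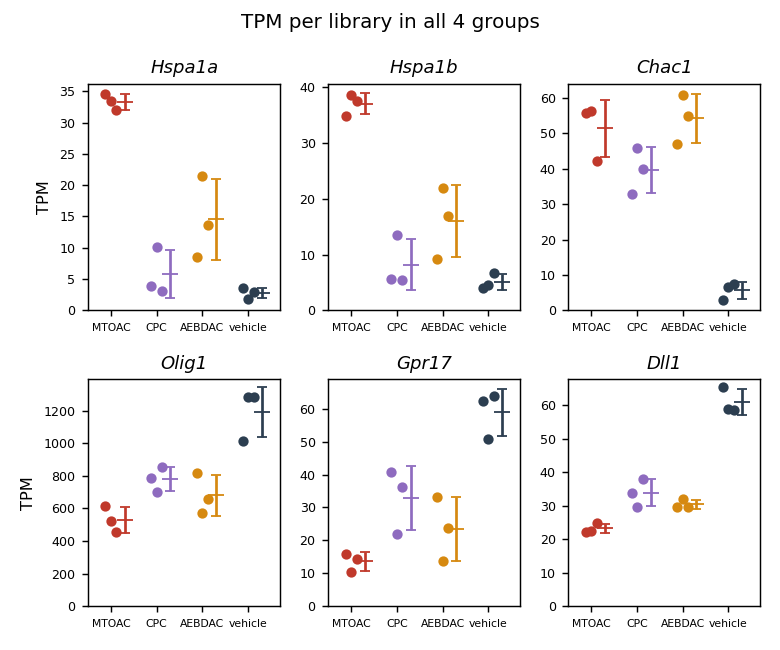
TPM in each library (vertical axes start at 0) for 6 genes in MTOAC, CPC, AEBDAC and vehicle libraries, from left to right in each panel, with the mean ± SD (n = 3) beside the points. The 3 MTOAC points of Hspa1a lie at 32.0 to 34.5 TPM, above all points of the other groups, and those of Chac1 lie among the points of CPC and AEBDAC.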

How the data were processed

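Poly(A) libraries were sequenced on a NovaSeq to a stated minimum of 20 M paired reads of 150 bp each, per the labels' protocols. Salmon and mm10 were used, per the submitters' processing notes, with version and annotation not given in the sources used here. TPM were deposited by the authors for 35385 symbols per library, of which 34810 matched GENCODE M21 on GRCm38. TPM were tested as log2(TPM + 1) with limma 3.58.1 in R 4.3.3 (trend and robust moderation, 4 group means over 12 libraries, no covariate, two-sided p adjusted by Benjamini and Hochberg over 12009 genes), after limma had been tested on simulated data. Genes named are the farthest fold changes, smallest p-values and most abundant calls, the called members of each list (at most 8) and a set of chosen genes, and not all of them are printed; a few are not reported here. The comparison, lists and genes were chosen with earlier results of these data known. Errors of fold changes are SE, and those of mean TPM are SD over 3 libraries. No libraries were identical. Same-numbered MTOAC and AEBDAC libraries deviated together across genes (r = 0.332, 0.359 and 0.296), and other pairs did not meet the rule that all 3 exceed 0.1. Alternatives changed the pseudocount, filter, scaling, fit, block and libraries.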

Additional observations from a re-analysis of the deposited data

How the results depend on the processing

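For MTOAC against vehicle, counts of genes called (higher and lower) kept within 1.5 times of 785 with a pseudocount of 0.1 or 5 TPM, a filter of 5 TPM, mitochondrial genes left out of the scaling, and limma without trend and robust moderation. They moved to 404 (54 and 350) with no filter beyond a value above 0, to 430 (213 and 217) with quantile normalization, to 411 (236 and 175) with median centring and to 17 (7 and 10) with only the 2 groups in the fit. Quantile normalization without vehicle library 1, chosen after seeing the data, gave 224 (115 and 109). Without 1 library the counts ran from 149 to 573 in all, from 30 to 57 higher and from 119 to 526 lower, with the smallest of each without MTOAC library 2. The median gene lay between -0.28 and -0.14 log2 without 1 library, at -0.0067 with quantile normalization with or without the block, at 0.037 with median centring and at -0.0138 with quantile normalization without vehicle library 1. Same-numbered MTOAC and vehicle libraries deviated with r of -0.026, 0.352 and -0.193, so the numbers were not taken to pair them; the replicate block gave 1904 genes (245 and 1659), and 1194 (620 and 574) with quantile normalization. Among genes named, the block alone also called Mt1 and Mt2 higher (adjusted p = 0.0057 and 0.00286) and Sox10 lower (0.0071), and Lims2 was not called (0.0511). MTOAC against CPC called 1 gene with no filter and 0 to 1 without 1 library, and MTOAC against AEBDAC 1 with only these groups in the fit, while the replicate block left both at 0. Of 119 called genes named for MTOAC, 34 lost the call with quantile normalization, 49 with median centring and 106 with only the 2 groups in the fit, and none turned. Among uncalled genes, Dnajb1 turned to 0.12 log2 with quantile normalization, with or without the block, and 0.15 with median centring, Fyn to 0.0598 and Hspa5 to 0.10 with median centring, and Mbp to 0.0846 with quantile normalization, with or without the block, and 0.0347 with median centring. Without 1 library Hspa5 ran from -0.34 to 0.0684, Mbp from -0.70 to 0.26 and mt-Nd3 from -0.43 to 6.42. The cause was not tested beyond what these settings themselves remove. Depth is unknown, so counting error could not be set against the spread between libraries.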

Other observations

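Few genes of axon guidance and of ion channels were called. Of 35 semaphorins, plexins, ephrins and Eph receptors 3 fell (8.57%, against 5.75% of all genes) and none rose, and none of the 3 was called after quantile normalization. Efna4, an ephrin ligand, averaged 5.54 ± 0.442 TPM with MTOAC and 13.1 ± 2.76 TPM with vehicle (SD, n = 3, as for the means below; -1.09 ± 0.21 log2, adjusted p = 0.0173). Plxna2, a semaphorin receptor, averaged 1.32 ± 0.441 TPM with MTOAC and 3.83 ± 1.11 TPM with vehicle (-1.05 ± 0.25 log2, adjusted p = 0.0359), and Sema6c, a membrane semaphorin, 2.40 ± 1.69 TPM with MTOAC and 10.3 ± 4.13 TPM with vehicle (-1.76 ± 0.46 log2, adjusted p = 0.0469). Of 54 potassium, sodium and calcium channel subunits 1 fell (1.85%), a share under that of all genes. It was Scn2a, a voltage-gated sodium channel, with 1.64, 0.859 and 1.57 TPM with MTOAC, against 4.81, 3.14 and 4.50 TPM with vehicle (-1.13 ± 0.26 log2 as fitted, -0.91 relative to the median gene, adjusted p = 0.0319). Leaving out 1 library, the call was lost without MTOAC library 1 by Efna4 and Scn2a, without MTOAC library 2 or vehicle library 3 by Efna4, Sema6c and Scn2a, without MTOAC library 3 or vehicle library 2 by Sema6c, and without vehicle library 1 by Sema6c and Scn2a (highest adjusted p = 0.135). Plxna2 lost it without any 1 of the 6 libraries. Efna4, Plxna2 and Sema6c were not called after quantile normalization (adjusted p = 0.0563 to 0.135). Median centring ended the call of Efna4, Plxna2, Sema6c and Scn2a (adjusted p = 0.0532 to 0.125).

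Among genes of organelles and protein turnover few were called. Of the mitochondrial ribosomal proteins, Mrpl49 had 21.4, 17.7 and 19.7 TPM with MTOAC, against 59.3, 33.7 and 36.2 TPM with vehicle (-1.05 ± 0.20 log2 as fitted, -0.84 relative to the median gene, adjusted p = 0.0168) and overlaps Syvn1 on the opposite strand. Mrpl20 had the farthest fold change of that list, with 0.957, 1.26 and 0.837 TPM with MTOAC, against 19.8, 3.04 and 5.66 TPM with vehicle, where vehicle library 1 stood far above the others (-2.03 ± 0.53 log2 as fitted, -1.82 relative to the median gene, adjusted p = 0.0463). Mrps30 was the 1 member that rose, with 27.8, 32.7 and 28.7 TPM with MTOAC, against 17.2, 19.4 and 20.3 TPM with vehicle (0.62 ± 0.13 log2 as fitted, 0.84 relative to the median gene, adjusted p = 0.0241). Psmd7, a lid subunit of the proteasome, averaged 105 ± 10.7 TPM with MTOAC and 148 ± 20.5 TPM with vehicle (-0.48 ± 0.12 log2, adjusted p = 0.0429). Of 51 genes in the list of initiation factors 1 rose (1.96%, against 0.791% of all genes), the repressor Eif4ebp1. Lower was 1 (1.96%, against 5.75%), Eif4h, with 191 ± 4.24 TPM with MTOAC and 237 ± 4.95 TPM with vehicle (-0.31 ± 0.08 log2, adjusted p = 0.04). Of 46 Usp deubiquitinases 2 fell (4.35%, against 5.75% of all genes). Usp5 averaged 66.6 ± 3.32 TPM with MTOAC and 89.3 ± 9.31 TPM with vehicle (-0.42 ± 0.11 log2, adjusted p = 0.0442). Usp40 averaged 4.53 ± 2.29 TPM with MTOAC and 10.2 ± 1.31 TPM with vehicle (-1.09 ± 0.28 log2, adjusted p = 0.0425). The metallothioneins Mt1 and Mt2, which bind zinc and copper, did not pass. Mt1 had 1048, 598 and 577 TPM with MTOAC, against 784, 417 and 342 TPM with vehicle (0.56 ± 0.38 log2, adjusted p = 0.401) and Mt2 1253, 673 and 743 TPM with MTOAC, against 777, 439.7 and 352 TPM with vehicle (0.79 ± 0.37 log2, adjusted p = 0.212), with overlapping groups and the highest value of each group in library 1. The call was lost without MTOAC library 1 or vehicle library 1 by Mrpl20, Mrps30, Psmd7 and Usp40, without MTOAC library 2 by Mrpl49, Mrpl20, Mrps30, Psmd7 and Usp40, without MTOAC library 3 by Mrpl20, without vehicle library 2 by Mrps30, Psmd7 and Usp40, and without vehicle library 3 by Mrpl20, Psmd7 and Usp40 (highest adjusted p = 0.14). Eif4h and Usp5 lost it without any 1 of the 6 libraries. Mrpl20, Psmd7, Eif4h, Usp5 and Usp40 were not called after quantile normalization (adjusted p = 0.0602 to 0.122). With median centring the call was lost by Mrpl20, Psmd7, Eif4h, Usp5 and Usp40 (adjusted p = 0.0652 to 0.846).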
